A study of Mus musculus with 4 samples.

Results

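The genes described here are the 71 classical axon guidance ligands and receptors of the mouse: the semaphorins with their plexin and neuropilin receptors, Slit and Robo, the netrins and netrin-Gs with Dcc and Unc5, and the ephrins with their Eph receptors. They were taken by gene symbol from the 55602 genes of the bulk count table, and all 71 are also listed in the table of allele-specific counts. Of these, 37 encode ligands and 34 encode receptors.

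A growing axon steers by surface receptors that read secreted or membrane-bound cues as attraction or repulsion. The same families also position migrating neurons and progenitors, form tissue boundaries in the neural tube and shape blood vessels. Most families hold several paralogues with partly overlapping partners, so that the set of receptors a cell makes decides which cues it can read.

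RNA-seq was done on neural precursor cells derived from embryonic stem cells (ESCs) of the male JB1 line. It is a hybrid of strains JF1 (mother) and C57BL/6 (B6, father), so that reads over strain differences can be assigned to a parental allele. Wild-type JB1 cells and cells of 1 JB1-derived Zfp57-/- line were compared, with 2 biological replicates each. ZFP57 is a zinc finger protein that keeps DNA methylation at imprinted control regions. Both genotypes were differentiated for 12 days in a defined medium with 1 µM cyclopamine, an inhibitor of sonic hedgehog signalling, from day 2 to day 10. Before that, the ESCs were kept with 3 µM CHIR99021, a GSK3 inhibitor. Since each genotype is a single line, the tests measure the spread between differentiations of these lines, and the genotype and any other difference between the lines cannot be told apart.

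The bulk libraries held from 7663520 (wild-type replicate 1) to 10337082 counts (Zfp57-/- replicate 2). Reads over Zfp57 itself were still counted in the mutant libraries (392 and 249 against 158 and 144 counts), which is no check of the labels because the table counts the whole gene and the deletion covers part of it. Of the pan-neuronal markers, 11 of 12 were lower in Zfp57-/- cells, and their summed level was 1869 and 2477 CPM (counts scaled to equal depth) in wild type against 301 and 252 in the mutant. Of 12 pluripotency markers 11 were higher, with summed levels of 73.4 and 147 against 1826 and 1684. Among dorsal forebrain genes, Emx1 and Emx2 had no more than 24 counts in any library, while Otx2 had 743 and 568 against 447 and 517, Lhx2 297 and 206 against 0 and 4, Neurog2 113 and 174 against 4 and 4 and Eomes 13 and 7 against 329 and 433 counts in wild-type against mutant libraries. The 2 wild-type replicates differed more than the mutant ones (standard deviation of the log2 difference between replicates 0.483 and 0.225 over 10105 genes), and genes with exon lengths of at least 8 kb were higher in wild-type replicate 1 by a median of 0.15 on the log2 scale while genes under 2 kb were lower by 0.51. Between genotypes the median log2 fold change (mutant over wild type) of these 10105 genes went with exon length too. It was 0.37 under 2 kb, 0.23 at 2 to 4 kb, 0.0 at 4 to 8 kb and -0.21 from 8 kb. The median exon length was 6.74 kb for the members tested and 3.54 kb for all genes tested.

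Taken across the families, the guidance genes were lower in Zfp57-/- than in wild-type cells. Differences between genotypes were tested with edgeR's quasi-likelihood test on all 19995 genes with more than 8 counts, and a gene was called at a Benjamini-Hochberg adjusted p below 0.05. Of the 70 members tested, 41 (58.6%) were lower and 5 (7.14%) were higher in Zfp57-/- cells, where 14.6% of all genes tested were lower and 13% were higher. The median log2 fold change was -1.07 for the members and -0.01 for all genes. Members lower by at least 1 on the log2 scale numbered 35 (11.7% of all genes), and the 5 higher ones all exceeded 1 (9.02% of all genes). Levels per library are given below as CPM, with library sizes scaled by edgeR's TMM factors. The mutant libraries both lay below both wild-type libraries for 46 members (32.6% of all genes tested) and both above for 13 (33.7%). Among better counted genes, with a mean of at least 100 counts, 32 of 53 members were lower, where 17.1% of such genes were lower, and with an exon length of at least 4 kb as well it was 28 of 45 members against 21.4%. With 1 library left out, the median log2 fold change of the members lay between -1.27 (without wild-type replicate 2) and -0.9 (without wild-type replicate 1). That of all genes lay between -0.024 and 0.02. With an offset for gene length, 37 members were lower and 7 were higher, where 3052 and 2849 of all 19995 genes were. The median log2 fold change was then -1.0 for the members and -0.042 for all genes. The number of calls moved with the library left out, for the members and for all genes. Between genotypes the change moves with the pluripotency and neuron markers above. Of 12 neural progenitor markers, 10 were lower in the mutant as well and 0 were higher. The part of these 3 marker lists in the change was not tested. Between wild-type replicates 1 and 2 the summed neuron markers rose (1869 and 2477 CPM) while the summed members fell (5981 and 4539 CPM). These replicates also differed with exon length, as given above. Tubb3 (exon length 1868 bases) was at 276 and 579 CPM and Map2 (16449 bases) at 685 and 632. Replicate 1 was the higher one for 4 of the 12 neuron markers. The part of length in this contrast was not tested. In bulk RNA, fewer cells of a type and less RNA per cell cannot be told apart.

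**Figure D1:**
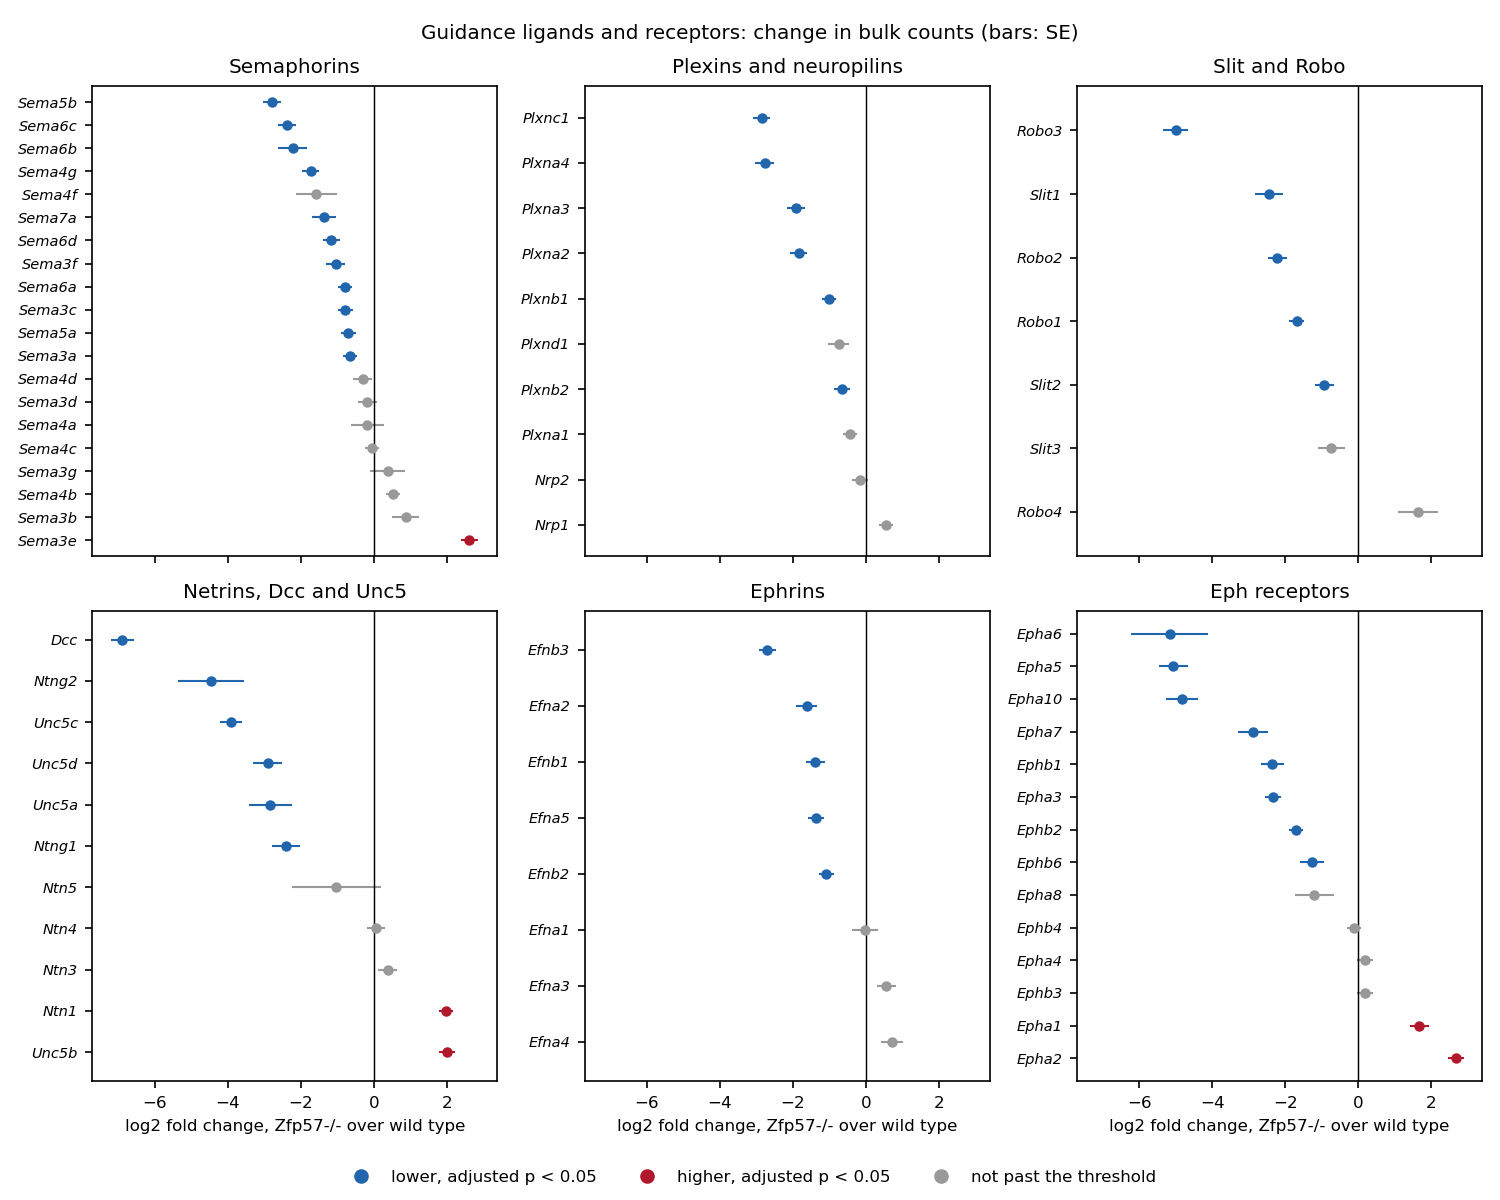
Log2 fold change (Zfp57-/- over wild type) of the 70 tested members in 6 panels by family. Points are edgeR estimates from 2 libraries per genotype and bars are standard errors, blue for lower and red for higher at an adjusted p below 0.05. Dcc lies farthest to the left at -6.88, and the 5 red points are Epha1, Epha2, Sema3e, Unc5b and Ntn1.

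Receptors and ligands both moved, with a lower median for the receptors. Of 33 receptors tested 21 were lower and 3 were higher, with a median log2 fold change of -1.72. Of 37 ligands 20 were lower and 2 were higher, with a median of -0.78. Whether these medians differ was not tested.

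The semaphorins are the largest family of repellents, in secreted (class 3), transmembrane (classes 4 to 6) and lipid-anchored (class 7) forms. Of 20 measured, 11 were lower and 1 was higher in Zfp57-/- cells. All 4 transmembrane class 6 members were lower and both class 5 members were lower, whereas in class 4 it was 1 of 6 and in class 3 it was 3 of 7. Sema5b, a transmembrane cue with thrombospondin repeats, was at 64 and 46.6 CPM in the wild-type libraries and at 8.47 and 7.46 in the Zfp57-/- libraries. Its mutant libraries lay far below both wild-type ones (log2 fold change -2.79 ± 0.25, adjusted p = 4.27e-05). Sema6c, a ligand of the plexins, was at 39.5 and 41.6 CPM in the wild-type libraries and at 6.87 and 8.78 in the Zfp57-/- libraries, again without overlap (log2 fold change -2.37 ± 0.24, adjusted p = 9.62e-05). Sema4g had 33.9 and 32.8 against 10.7 and 9.4 CPM in wild-type against mutant libraries (log2 fold change -1.73 ± 0.23, adjusted p = 0.000511). Sema6b had 12 and 8.68 against 2.36 and 2.04 (log2 fold change -2.22 ± 0.40, adjusted p = 0.00284). Sema6d, which signals through class A plexins in heart and brain, had 112 and 155 against 52.6 and 66.5, so the higher wild-type library was replicate 2 (log2 fold change -1.16 ± 0.23, adjusted p = 0.00436). Sema7a, the lipid-anchored ligand of Plxnc1, had 21.4 and 13.6 against 5.79 and 7.76 (log2 fold change -1.36 ± 0.33, adjusted p = 0.0123). Sema6d (adjusted p = 0.0889) and Sema7a (0.128) lost their call without mutant replicate 1.

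Sema3e was the only semaphorin past the threshold in the other direction. This secreted ligand binds Plxnd1 without a neuropilin and is known from vessel patterning. It was measured at 7.92 and 7.35 CPM in the wild-type libraries and at 50.8 and 42.9 in the Zfp57-/- libraries. The replicates of each genotype lay close together and the groups did not overlap (log2 fold change 2.62 ± 0.23, adjusted p = 4.24e-05, a 6.14-fold higher level). Plxnd1 itself was at 31.9 and 20 against 14.1 and 16.8 in wild-type against mutant libraries and did not pass the threshold (log2 fold change -0.75 ± 0.28, adjusted p = 0.0711).

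The other 5 semaphorins past the threshold were lower by smaller log2 amounts. Sema3a, the repellent first found by its collapse of growth cones, was at 55.5 and 61.3 against 36.1 and 39 CPM (log2 fold change -0.64 ± 0.19, adjusted p = 0.0345). The call was lost with DESeq2 (adjusted p = 0.0501) and with an offset for gene length (log2 fold change -0.30, adjusted p = 0.286). Sema3c (-0.78 ± 0.21), Sema3f (-1.04 ± 0.26), Sema5a (-0.69 ± 0.20) and Sema6a (-0.78 ± 0.19) were the other 4. Sema5a lost its call under the length offset (-0.19, adjusted p = 0.482), and all 5 genes of this paragraph lost it without either one of the mutant replicates. The 8 semaphorins that passed in neither direction were Sema3b, Sema3d, Sema3g, Sema4a, Sema4b, Sema4c, Sema4d and Sema4f, with log2 fold changes from -1.57 (Sema4f, 27 and 40 against 9 and 14 counts) to 0.88 (Sema3b, 50 and 41 against 88 and 89 counts).

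Plexins are the signalling receptors of the semaphorins, and neuropilins are the co-receptors that bind the class 3 ligands. Of 8 plexins tested 6 were lower in Zfp57-/- cells, and neither neuropilin passed the threshold. Plxnc1, the receptor of Sema7a, was at 42.1 and 43.7 CPM in the wild-type libraries and at 6.01 and 5.82 in the Zfp57-/- libraries. The replicates nearly coincided in both genotypes (log2 fold change -2.86 ± 0.23, adjusted p = 2.51e-05, a 7.24-fold lower level). Plxna4, which reads Sema3a and class 6 ligands, was at 65.2 and 46.6 CPM in the wild-type libraries and at 7.4 and 8.89 in the Zfp57-/- libraries (log2 fold change -2.77 ± 0.26, adjusted p = 5.18e-05). Plxna2 had 200 and 138 against 44.6 and 49.5 (log2 fold change -1.84 ± 0.23, adjusted p = 0.00033), and X-linked Plxna3 had 95.9 and 62.8 against 23.2 and 19.1 (log2 fold change -1.91 ± 0.25, adjusted p = 0.000465). The mutant libraries were below the wild-type ones for every tested plexin.

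Both class B plexins that were tested, Plxnb1 and Plxnb2, were lower. Plxnb1, a receptor for Sema4d, was at 189.6 and 148 against 82.7 and 84.8 CPM (log2 fold change -1.01 ± 0.20, adjusted p = 0.00497). The call of Plxnb1 was lost without either mutant replicate (adjusted p = 0.0973 and 0.0796). Plxnb2, which progenitors of the developing brain express, was at 394 and 307 against 198 and 246 (log2 fold change -0.66 ± 0.21, adjusted p = 0.043), and its call was lost with the length offset (adjusted p = 0.0598) or without either mutant replicate. Plxna1 was at 389.6 and 329.5 against 252 and 281 and did not pass (log2 fold change -0.43 ± 0.19, adjusted p = 0.125). Nrp1, the co-receptor of Sema3a, was at 43.7 and 37.7 CPM in the wild-type libraries and at 59.4 and 58.7 in the Zfp57-/- libraries, so that both mutant libraries were higher but the test fell short (log2 fold change 0.54 ± 0.19, adjusted p = 0.0636). Nrp2, the co-receptor of Sema3f, was at 181 and 121 against 135 and 133, with overlapping groups (log2 fold change -0.17 ± 0.22, adjusted p = 0.618). Plxnb3 had 1 count in 1 mutant library and none elsewhere and was not tested.

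Slit proteins are secreted repellents of the midline, and Robo receptors read them. Of 7 members tested 5 were lower in Zfp57-/- cells and none was higher. Robo3, which lets commissural axons cross the midline (chr9:37415669-37433246, mm10, minus strand), was at 106 and 65.5 CPM in the wild-type libraries and at 3.33 and 2.04 in the Zfp57-/- libraries. The groups stood far apart (log2 fold change -5.0 ± 0.34, adjusted p = 1.02e-05, a 31.9-fold lower level). Robo2 had 192 and 113 against 29.6 and 36 (log2 fold change -2.22 ± 0.27, adjusted p = 0.000297) and Robo1 had 352 and 269 against 89.4 and 104 (log2 fold change -1.69 ± 0.21, adjusted p = 0.000363). These 2 receptors carry most Slit signalling in forebrain and spinal cord.

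Slit1 was at 69.6 and 28.7 CPM in the wild-type libraries and at 8.37 and 9.7 in the Zfp57-/- libraries. The wild-type libraries themselves differed 2.43-fold, and both exceeded the mutant ones (log2 fold change -2.44 ± 0.38, adjusted p = 0.00136). Slit2 was at 409.9 and 227 against 157 and 178 (log2 fold change -0.93 ± 0.27, adjusted p = 0.0296), a call lost under the length offset (log2 fold change -0.21, adjusted p = 0.426) and without either mutant replicate. Slit3 was at 46.3 and 18.1 against 20 and 18.5, with wild-type replicate 2 at the level of the mutant (log2 fold change -0.74 ± 0.37, adjusted p = 0.172). Robo4, known from endothelial cells, had only 15 and 10 against 41 and 41 counts and did not pass (log2 fold change 1.62 ± 0.55, adjusted p = 0.0541). Endothelial markers summed to 359.5 and 249 CPM in wild type and to 257 and 305 in the mutant, and 1 of 10 was lower and 2 were higher.

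Netrins attract or repel axons depending on the receptor: Dcc mediates attraction, and Unc5 receptors turn the response to repulsion. Here Dcc and 3 of the 4 Unc5 receptors were lower, and 1 Unc5 receptor was higher. Dcc (chr18:71258738-72351069, mm10, minus strand) was at 307 and 200.5 CPM in the wild-type libraries and at 2.15 and 2.15 in the Zfp57-/- libraries, which corresponds to 2484 and 2101 against 20 and 21 counts. It was among the most abundant members per length in wild type and was far lower in the mutant (log2 fold change -6.88 ± 0.32, adjusted p = 1.75e-06, a 118-fold lower level). Unc5c was at 328 and 183 CPM in the wild-type libraries and at 17.6 and 16.2 in the Zfp57-/- libraries, a 15.1-fold lower level without overlap (log2 fold change -3.92 ± 0.30, adjusted p = 1.75e-05). Unc5d had 10 and 12.7 against 1.5 and 1.53 (log2 fold change -2.90 ± 0.40, adjusted p = 0.000623), and Unc5a had 48 and 56 against 4 and 11 counts (log2 fold change -2.83 ± 0.59, adjusted p = 0.00653). The call of Unc5a was lost without mutant replicate 1 (adjusted p = 0.0839).

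Unc5b and the ligand Ntn1 rose. Unc5b, the Unc5 receptor also found on sprouting vessels, was at 38.2 and 27.5 CPM in the wild-type libraries and at 127 and 138 in the Zfp57-/- libraries (log2 fold change 2.01 ± 0.22, adjusted p = 0.000149). Ntn1, the founding netrin of floor plate and ventricular zone, was at 27.6 and 27.1 CPM in the wild-type libraries and at 103 and 112 in the Zfp57-/- libraries (log2 fold change 1.97 ± 0.19, adjusted p = 7.45e-05). For both genes each mutant library exceeded each wild-type library by more than the replicates differed. The other netrins did not pass. Ntn4, a basement membrane netrin, was at 28.8 and 41.4 against 31 and 42.5 (log2 fold change 0.06 ± 0.25, adjusted p = 0.878), Ntn3 was at 12.4 and 11.4 against 17.3 and 13.9 (log2 fold change 0.39 ± 0.26, adjusted p = 0.309), and Ntn5 had 4 and 2 against 1 and 2 counts. The netrin-Gs are lipid-anchored synaptic proteins that do not bind Dcc, and both were lower. Ntng1 had 20.8 and 11.4 against 2.79 and 3.27 CPM (log2 fold change -2.40 ± 0.39, adjusted p = 0.00156). Ntng2 had 29 and 40 against 0 and 3 counts, a wild-type over mutant ratio of 23.7 with an exact counting interval of 7.77 to 118, and 14% of its exon length is shared with 6530402F18Rik on the same strand.

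**Figure D2:**
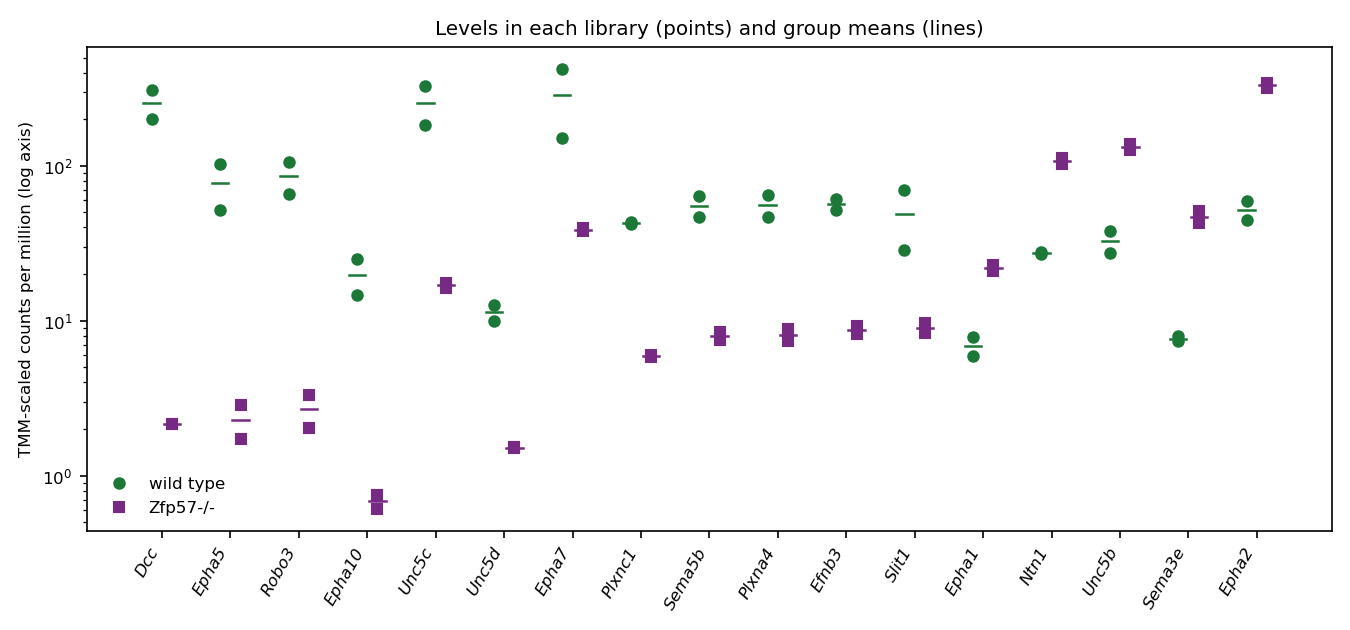
Levels of 17 members in each library, in TMM-scaled CPM on a log axis. Circles are wild-type and squares are Zfp57-/- libraries, 2 each, and short lines are group means. In 12 members the mutant squares lie below the wild-type circles and in Epha1, Ntn1, Unc5b, Sema3e and Epha2 they lie above, with Dcc spanning the widest range.

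Ephrins are membrane-bound ligands, lipid-anchored in class A and transmembrane in class B. Of 8 measured 5 were lower and none was higher. All 3 ephrin-B genes were lower. Efnb3, a midline barrier for corticospinal axons, was at 52.2 and 61.3 CPM in the wild-type libraries and at 9.22 and 8.27 in the Zfp57-/- libraries (log2 fold change -2.70 ± 0.22, adjusted p = 2.78e-05). X-linked Efnb1 was at 95.4 and 92.5 against 26.2 and 45.6, with mutant replicate 2 the higher of its group (log2 fold change -1.39 ± 0.26, adjusted p = 0.00353). Efnb2 was at 123 and 146 against 55.1 and 70.9 (log2 fold change -1.09 ± 0.21, adjusted p = 0.00406). Both Efnb1 (adjusted p = 0.0691) and Efnb2 (0.128) lost their call without mutant replicate 1.

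In class A, Efna5, a repellent of retinal axons, was at 33.9 and 35 against 13 and 13.7 (log2 fold change -1.37 ± 0.22, adjusted p = 0.00149) and Efna2 was at 27 and 45.2 against 10.7 and 12.7 (log2 fold change -1.63 ± 0.29, adjusted p = 0.00256). The groups did not overlap for either. Efna3 and Efna4 were higher in both mutant libraries without passing the threshold (10.6 and 11.4 against 14.8 and 17.5 and 12.4 and 23.5 against 29.9 and 28.5, adjusted p = 0.147 and 0.109). Efna1 was at 6.8 and 6.49 against 7.51 and 5.62, with overlapping groups.

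Eph receptors are receptor tyrosine kinases that answer contact with ephrins. Of 14 measured 8 were lower and 2 were higher. Epha5, an EphA receptor of forebrain neurons, was at 103 and 52.1 CPM in the wild-type libraries and at 1.72 and 2.86 in the Zfp57-/- libraries. The wild-type replicates differed 1.98-fold and both lay more than 10-fold above the mutant (log2 fold change -5.07 ± 0.40, adjusted p = 2.14e-05). Epha10, which lacks kinase activity, was at 24.9 and 14.6 against 0.751 and 0.613 (log2 fold change -4.83 ± 0.44, adjusted p = 5.05e-05). Epha3 was at 65.1 and 59.6 against 13.6 and 11.2 (log2 fold change -2.33 ± 0.22, adjusted p = 5.67e-05). Epha7, a marker of dorsal and cortical progenitor domains, was at 422 and 151 CPM in the wild-type libraries and at 39.4 and 37.8 in the Zfp57-/- libraries, so wild-type replicate 1 was 2.79 times replicate 2 and both were above the mutant (log2 fold change -2.89 ± 0.41, adjusted p = 0.000699). Epha6 had 17 and 27 against 1 and 0 counts, a wild-type over mutant ratio of 45.3 with an exact counting interval of 7.72 to 1830.

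Among the EphB receptors, Ephb2 was at 181 and 174 CPM in the wild-type libraries and at 50.8 and 57.1 in the Zfp57-/- libraries (log2 fold change -1.72 ± 0.19, adjusted p = 0.000168). Ephb1, which sorts crossing from uncrossed retinal axons, was at 15.3 and 14.9 against 2.9 and 2.96 (log2 fold change -2.36 ± 0.32, adjusted p = 0.000585), and Ephb6, another receptor without kinase activity, was at 15.6 and 12.9 against 4.51 and 7.25 (log2 fold change -1.27 ± 0.33, adjusted p = 0.0194). The call of Ephb6 was lost without mutant replicate 1 (adjusted p = 0.272). The groups did not overlap in these 3 genes. Epha4, Epha8, Ephb3 and Ephb4 did not pass, with log2 fold changes of 0.17 ± 0.22, -1.21 ± 0.53, 0.18 ± 0.21 and -0.11 ± 0.19.

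Epha2 and Epha1, receptors best known from epithelia, were higher in the mutant. Epha2 (chr4:141301240-141329384, mm10, plus strand) was at 59.1 and 45 CPM in the wild-type libraries and at 344 and 316 in the Zfp57-/- libraries, a 6.34-fold higher level (log2 fold change 2.66 ± 0.22, adjusted p = 2.37e-05). Epha1 was at 5.94 and 7.82 CPM in the wild-type libraries and at 21 and 22.9 in the Zfp57-/- libraries (log2 fold change 1.67 ± 0.27, adjusted p = 0.00171). Both mutant libraries were above both wild-type libraries in each case.

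Divided by exon length, levels can be set beside each other between genes. In wild type the highest values were those of Plxnb2 (45.4 CPM per kb), Plxna1 (39.7), Dcc (31.5), Epha7 (29) and Efnb1 (27.2). In Zfp57-/- cells they were those of Epha2 (70.6), Plxna1 (29.5), Plxnb2 (28.8), Epha4 (25.3) and Unc5b (21.2). The class A and B plexins Plxna1 and Plxnb2 thus stayed in the leading positions, while Dcc went from rank 3 to rank 62 of 71 and Epha2 from rank 22 to rank 1. In wild type the per-kb levels of Plxnb2 in replicates 1 and 2 were 51.1 and 39.8 and those of Plxna1 were 43 and 36.4, so these neighbours in the order overlapped. Dcc (38.1 and 24.8), Epha7 (42.7 and 15.3) and Efnb1 (27.6 and 26.8) overlapped as well. In the mutant the per-kb level of Epha2 (73.5 and 67.6) stood clear of Plxna1 (27.8 and 31.1).

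**Figure D3:**
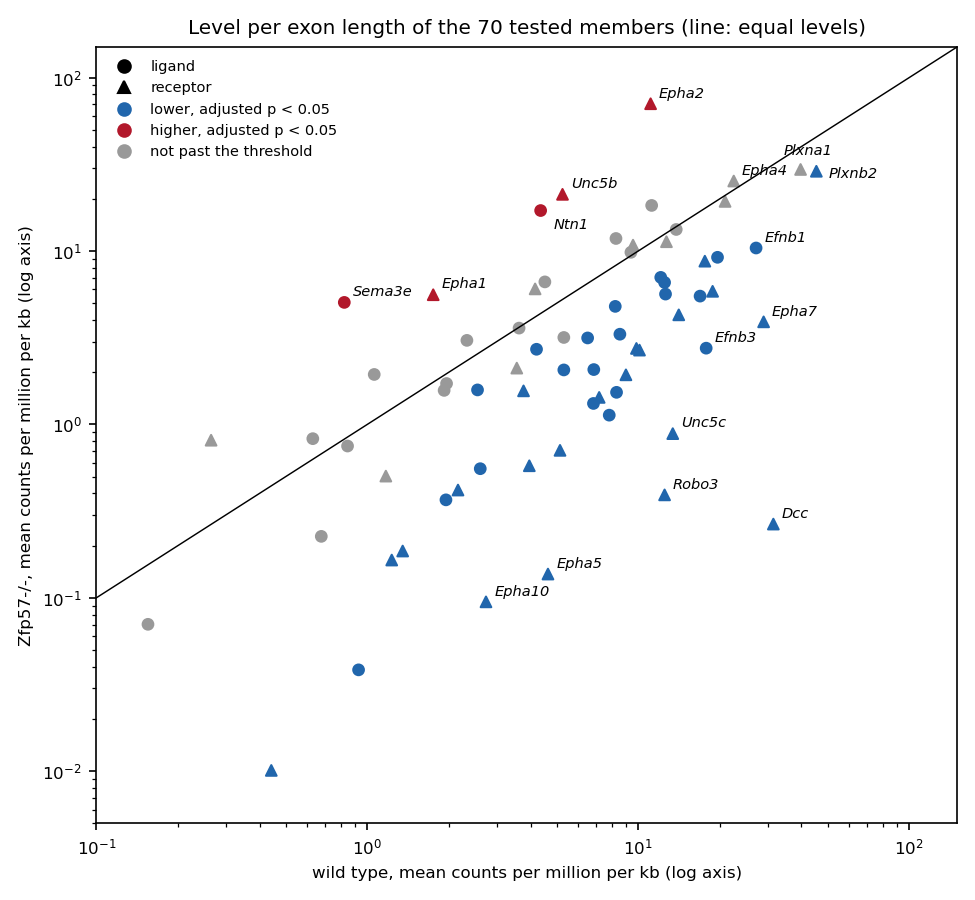
Mean level per kb of exon length in wild type (x axis) and Zfp57-/- cells (y axis), CPM per kb on log axes, for the 70 tested members. Circles are ligands, triangles are receptors, colours give the call, and the line marks equal levels. Most points lie below the line, Dcc, Epha6 (the lowest point), Robo3, Epha5 and Epha10 farthest, and Epha2 lies highest above it at 70.6 in the mutant.

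The promoter windows show whether members that moved together or apart share short sequence elements. RefSeq windows (GRCm38.p6, 250 bases before to 50 after the start) were found for 61 of the 71 members. Searched on both strands were TGCCGC and GGCCGC, both forms of the hexamer that ZFP57 binds when methylated. Also searched were the proneural E-box CAGATG and the octamer ATGCAAAT read by Pou5f1. Each window was counted once per element, also where copies overlap. The hexamer TGCCGC lay in 24.6% of members' windows and in 13.1% of all 20586 windows, and GGCCGC in 36.1% and 23.7%, while the median GC content was 64.7% and 55.0%. CAGATG was found in 8.2% and 15.9% and ATGCAAAT in 0 and 335 windows (1.63% of all). Among the lower members 8 of 34 windows held TGCCGC, among the higher ones 1 of 4, and among those past neither threshold 6 of 22. For GGCCGC it was 13 of 34, 1 of 4 and 8 of 22. The windows of the paralogues Unc5c, which fell, and Unc5b, which rose, are printed with those of Robo3 (fell) and Epha2 (rose), with any of the 4 elements in capitals. They lie at chr9:37433126-37433425 (Robo3, minus strand), chr3:141465314-141465613 (Unc5c, plus), chr10:60831532-60831831 (Unc5b, minus) and chr4:141300971-141301270 (Epha2, plus), each read along the gene's strand, 5′ to 3′.
Robo3: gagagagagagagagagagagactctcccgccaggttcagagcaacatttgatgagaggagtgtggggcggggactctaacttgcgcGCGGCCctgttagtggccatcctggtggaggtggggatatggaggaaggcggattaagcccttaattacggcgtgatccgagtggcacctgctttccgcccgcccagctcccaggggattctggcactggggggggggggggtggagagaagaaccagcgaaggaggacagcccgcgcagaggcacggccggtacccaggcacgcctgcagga
Unc5c: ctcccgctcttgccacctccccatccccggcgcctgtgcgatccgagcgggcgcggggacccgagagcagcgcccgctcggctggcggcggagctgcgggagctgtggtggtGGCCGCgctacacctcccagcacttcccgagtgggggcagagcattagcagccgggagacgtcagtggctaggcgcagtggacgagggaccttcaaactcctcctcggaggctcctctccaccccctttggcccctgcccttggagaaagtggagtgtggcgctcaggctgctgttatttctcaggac
Unc5b: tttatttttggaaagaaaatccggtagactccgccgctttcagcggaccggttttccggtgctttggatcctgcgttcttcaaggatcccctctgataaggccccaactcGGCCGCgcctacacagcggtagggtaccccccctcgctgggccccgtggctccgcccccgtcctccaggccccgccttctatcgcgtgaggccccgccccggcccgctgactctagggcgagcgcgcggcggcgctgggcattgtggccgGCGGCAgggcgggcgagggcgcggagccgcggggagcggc
Epha2: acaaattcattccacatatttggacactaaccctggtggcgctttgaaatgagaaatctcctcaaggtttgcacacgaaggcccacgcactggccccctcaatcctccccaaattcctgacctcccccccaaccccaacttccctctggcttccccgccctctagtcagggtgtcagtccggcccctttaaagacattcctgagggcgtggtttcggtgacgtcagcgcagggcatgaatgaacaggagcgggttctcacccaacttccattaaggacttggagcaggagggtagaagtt
Robo3 and Unc5c each held GGCCGC once, Unc5b held both hexamers, and no element was found in the Epha2 window, so that windows with an element were found for rising and for falling members. A match describes letters only and is no measured binding.

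Beyond the classical families, 37 other surface and secreted guidance molecules were read out, and 25 were lower and 1 was higher (14.6% and 13% of all genes), with a median log2 fold change of -1.65. Draxin, a repellent that binds Dcc, was at 45.9 and 42.2 CPM in the wild-type libraries and at 1.07 and 0.511 in the Zfp57-/- libraries (log2 fold change -5.78 ± 0.35, adjusted p = 5.11e-06). Igdcc3, of the Dcc family, was at 107 and 107 against 13.1 and 13 (log2 fold change -3.04 ± 0.20, adjusted p = 8.42e-06). Fzd3 and Celsr2, planar polarity receptors needed for axon tracts, had log2 fold changes of -2.89 ± 0.20 and -3.95 ± 0.30, and the adhesion molecule Nfasc had -3.40 ± 0.23. Dscaml1 was the higher one, from 32 and 19 against 71 and 82 counts (log2 fold change 1.49 ± 0.46, adjusted p = 0.0372), a call lost without either mutant replicate and with scaling to total counts.

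Of 52 intracellular effectors of guidance, 18 were lower and 4 were higher (14.6% and 13% of all genes), with a median of -0.13. The collapsin response mediators Dpysl4 (-3.38 ± 0.26), Dpysl3 (-2.60 ± 0.25) and Dpysl5 (-2.38 ± 0.25), the Slit-Robo GTPase activator Srgap3 (-2.96 ± 0.27) and the kinase Pak3 (-2.03 ± 0.22) had the smallest adjusted p among those that fell. Vasp, an actin regulator, rose from 45.5 and 58.5 to 137 and 132 CPM (log2 fold change 1.37 ± 0.20, adjusted p = 0.000956). Mical2, Srgap2 and Abl2 rose by less (0.90 ± 0.24, 0.73 ± 0.21 and 0.65 ± 0.18). The count of higher effectors was 11 without wild-type replicate 2 and 1 without either mutant replicate.

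Reads that overlap strain differences were then used to ask whether both parental copies of a member moved. Each allele was tested between genotypes over 13435 genes with at least 20 allelic counts, and 62 members could be tested. The JF1 (maternal) copy was lower for 31 members and higher for 4 (14.7% and 11% of all genes), and the B6 (paternal) copy was lower for 31 and higher for 7 (13% and 16.5%). Both copies were lower for 27 members (9.33% of all genes) and both were higher for 3 (7.3%). Without mutant replicate 1 or 2 the lower JF1 copies were 16 in each case, and the lower B6 copies were 14 and 15.

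Both copies were lower for Dcc, Unc5c, Robo3 and Epha7, as a bulk fall this large requires where the wild-type copies are near even. Dcc had 1413 and 1233 allelic reads in the wild-type libraries and 6 and 11 in the mutant ones, and the log2 change was -7.74 ± 0.44 for JF1 and -7.02 ± 0.40 for B6. For Unc5c it was -3.93 ± 0.47 and -4.16 ± 0.48, for Robo3 -4.74 ± 0.43 and -5.52 ± 0.46, and for Epha7 -2.83 ± 0.58 and -2.93 ± 0.58. The members that rose on both copies were Unc5b (2.09 ± 0.23 and 2.03 ± 0.23), Ntn1 (2.11 ± 0.23 and 1.96 ± 0.22) and Sema3e (3.40 ± 0.30 and 1.61 ± 0.30). Epha2 had no allelic read in any library.

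**Figure D4:**
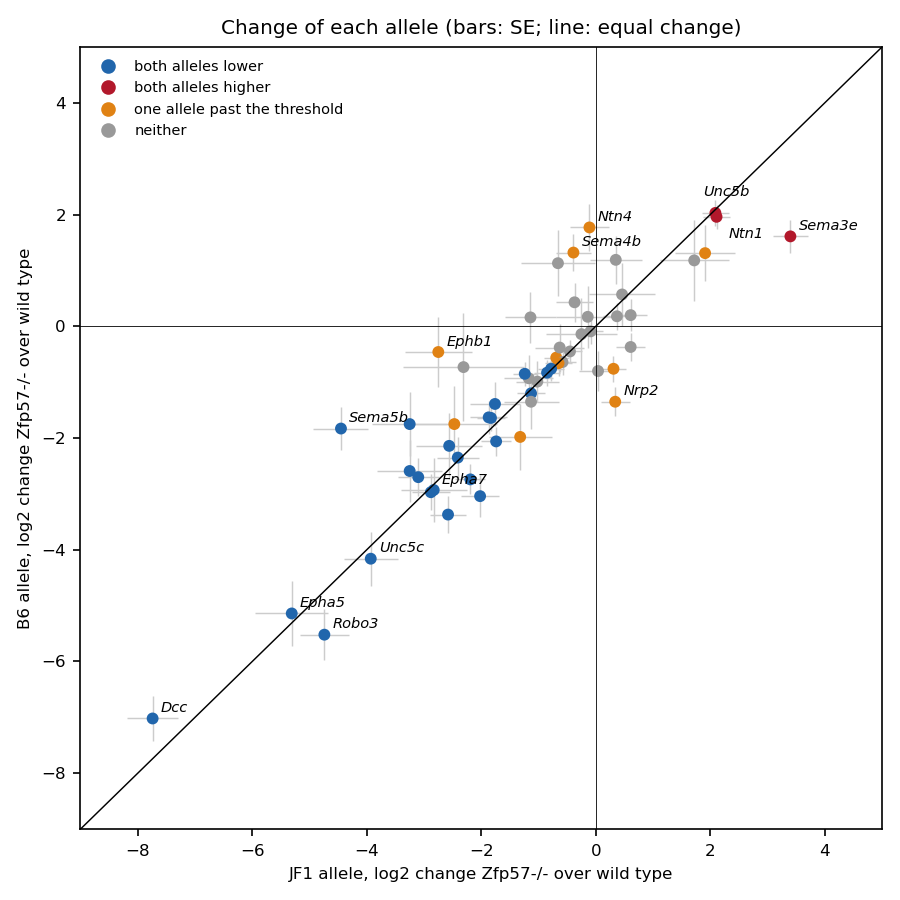
Log2 change (Zfp57-/- over wild type) of the JF1 copy (x axis) and the B6 copy (y axis) for the 56 members with reads of both alleles in both genotypes. Points are edgeR estimates, bars are standard errors, colours give the calls, and the line marks equal change. Dcc lies at -7.74 and -7.02 near the line, while Sema5b, Ephb1, Nrp2, Ntn4 and Sema4b lie off it.

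The allelic ratio, JF1 reads over the sum of JF1 and B6 reads, had a median over wild-type libraries of 0.499 and over mutant libraries of 0.489, from 10091 autosomal genes. In the fit with a term per library, 14 of 61 members were biased in wild type (23.0%, against 23.6% of all genes), 10 to JF1 and 4 to B6 (14.3% and 9.26% of all genes), and 12 were biased in the mutant (19.7%, against 21.8% of all genes), 6 to each side (9.36% and 12.5%). The 14 became 7 without either wild-type replicate and 5 with DESeq2, which left 6 of the 12 in the mutant. A genotype-by-allele difference was called for 12 members (19.7%, against 14.5% of all genes), in 5 with a higher (4.18% of all genes) and in 7 with a lower JF1 share in the mutant (10.3%), and DESeq2 called 7 in all. The JB1 cells are male, so their X chromosome comes from the JF1 mother and X-linked genes have no B6 copy. The X-linked Efnb1 and Plxna3 had only JF1 reads in all 4 libraries. Their 374 and 442 reads in wild type allow B6 shares of up to 0.802% and 0.679%. Such limits and the intervals given here cover counting error only.

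Several of these differences lay in stretches where the neighbouring genes shifted too. Plxnb1 had ratios of 1.0 and 1.0 in wild type against 0.505 and 0.518 in the mutant (1150 and 575 reads), and Sema3f of 1.0 and 1.0 in wild type against 0.571 and 0.583 in the mutant (31 and 19 reads). The call of Sema3f was lost without either wild-type replicate (adjusted p = 0.111 and 0.287) and with DESeq2 (0.114). The 0 B6 reads of wild type allow a share of up to 0.261% and 9.68%. The 15 nearest genes of Plxnb1 had median ratios of 1.0 and 0.474 in wild type and mutant and those of Sema3f 1.0 and 0.528, all on chr9. Medians of 1.0 in wild type and below 0.55 in the mutant were also found around Sema3b, Epha2 (1.0 and 0.438) and Ntn5, which makes 5 autosomal members in all. The part of these stretches in the bulk change of Epha2, Plxnb1 and Sema3f was not tested.

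On chr1 the shift went the other way. Nrp2 had ratios of 0.503 and 0.528 in wild type against 0.805 and 0.74 in the mutant, beside neighbour medians of 0.488 and 0.665 (difference 1.68 ± 0.14 on the log2 scale, adjusted p = 1.32e-17). Epha4 had 0.488 and 0.547 in wild type against 0.657 and 0.689 in the mutant (neighbours 0.521 and 0.631, adjusted p = 2.70e-07), and Sema4c had 0.523 and 0.522 in wild type against 0.704 and 0.69 in the mutant (neighbours 0.543 and 0.633, adjusted p = 3.04e-06). In all 3 genes both mutant libraries lay above both wild-type libraries, and the bulk level did not pass the test. For Nrp2 the B6 copy was lower (-1.35 ± 0.26) and the JF1 copy was not called (0.34 ± 0.25).

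The neighbours of Sema3e, Ntn4 and Sema5b had medians near 0.5 in both genotypes, over spans of 12.7, 4.93 and 2.19 Mb. Those of Plxnb1 and Sema3f spanned 0.527 and 0.768 Mb. A median over a wide span cannot show whether a shorter stretch shifted. Sema3e had ratios of 0.406 and 0.4 in wild type against 0.726 and 0.667 in the mutant with 72 and 452 reads, so that the JF1 copy took the larger part of the higher mutant level (neighbours 0.492 and 0.511, difference 1.77 ± 0.42 on the log2 scale, adjusted p = 0.000704). DESeq2 put this at an adjusted p of 0.0575. Ntn4 leaned to JF1 in wild type and less in the mutant, with 0.87 and 0.857 in wild type against 0.702 and 0.574 in the mutant (neighbours 0.499 and 0.508, adjusted p = 4.71e-05), and its B6 copy was higher (1.77 ± 0.42) while its bulk level did not pass. Sema5b had 0.57 and 0.556 in wild type against 0.188 and 0.16 in the mutant, from 266 and 41 reads (neighbours 0.485 and 0.474, adjusted p = 0.000507), with a larger fall of JF1 (-4.45 ± 0.48) than of B6 (-1.83 ± 0.38). Sema4b had 0.735 and 0.678 in wild type against 0.38 and 0.451 in the mutant, and its neighbours also had a lower median in the mutant (0.581 and 0.494, adjusted p of Sema4b = 3.16e-05).

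The last 3 rest on few reads or uneven replicates. Ephb1 had 0.75 and 0.815 in wild type against 0.444 and 0.375 in the mutant from 94 and 26 reads (adjusted p = 0.0386), and the call was lost without any 1 of the 4 libraries and with DESeq2 (adjusted p = 0.434). Epha10 had 0.366 and 0.362 in wild type against 1.0 and 1.0 in the mutant, but the mutant value rests on 5 reads (adjusted p = 0.0362), and the call was lost without any 1 of the 4 libraries (adjusted p from 0.0827 to 0.257) and with DESeq2 (0.137). Slit3 had 0.726 and 0.519 in wild type against 0.351 and 0.528 in the mutant, with overlapping libraries (adjusted p = 0.0386), and the adjusted p was 0.838 without wild-type replicate 1, 0.43 without mutant replicate 1 and 0.759 with DESeq2.

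**Figure D5:**
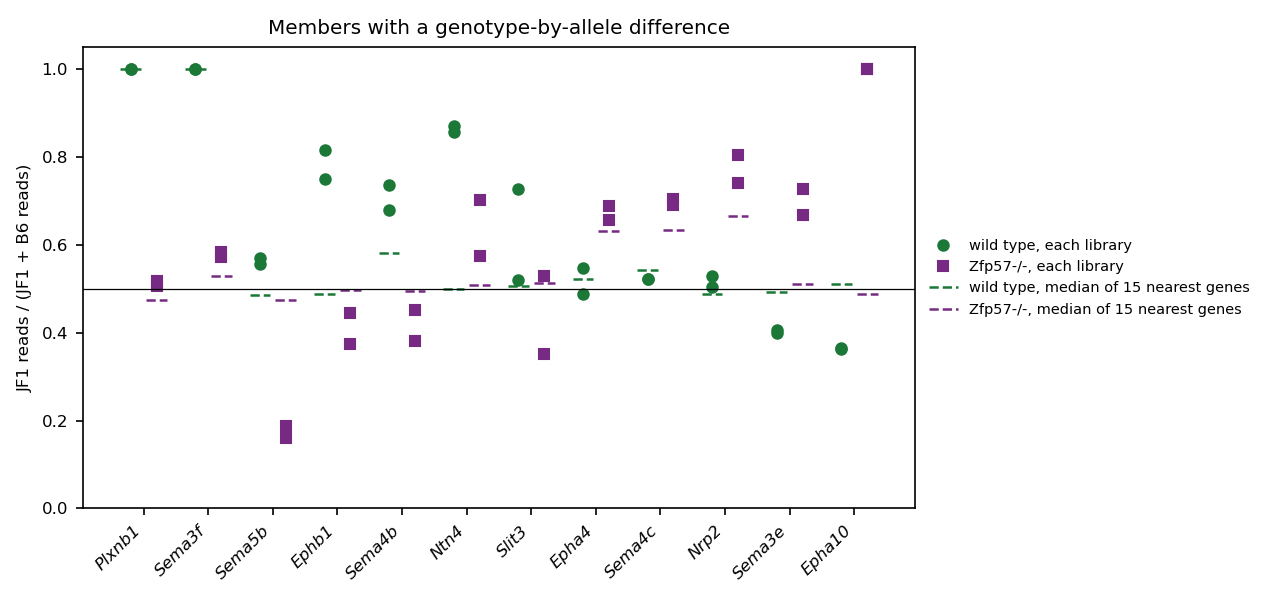
Ratio of JF1 reads to JF1 plus B6 reads for the 12 members with a genotype-by-allele difference, circles for wild-type and squares for Zfp57-/- libraries (2 each). Dashed lines are the median ratio of the 15 nearest genes in each genotype and the solid line marks 0.5. The dashed lines fall with Plxnb1 and Sema3f and rise with Epha4, Sema4c and Nrp2, while they stay between 0.45 and 0.6 for the other members.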

How the data were processed

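Total RNA was sequenced after ribosomal depletion with a stranded kit as paired reads. Per the labels and methods, the authors trimmed reads with Trimmomatic 0.36, aligned them with STAR 2.5.4a to GRCm38/mm10, keeping unique alignments, and counted reverse-stranded reads per gene of GENCODE M20 with featureCounts (Subread 1.6.0); alleles were split by SNPsplit on a genome with masked strain differences. The deposited values are raw counts per gene and, in a second table, raw counts per gene and allele. Gene symbols were matched for 54721 of 55602 gene IDs. Fits were run on all genes with edgeR 4.0.16 in R 4.3.3 (robust quasi-likelihood, TMM, more than 8 counts in sum, Benjamini-Hochberg). Standard errors are the absolute log2 fold change over the square root of F. Allele fits used library sizes of the bulk table, a term per library and a minimum of 10 scaled allelic counts per wild-type library (10977 autosomal genes). Neighbour medians use the 15 nearest genes with at least 10 allelic reads per library. DESeq2 1.42.0, other scalings, filters, a length offset, a replicate block and leaving out each library were alternatives. The scripts were tested on simulated data. Named genes are, per family, up to 6 called members per direction with the smallest adjusted p, the highest per length, all with an allelic difference, and others with their values. The members and lists were chosen with earlier results of these data known. Gap43 stands both in the effector and the neuron list. Of the 37 other surface genes and 52 effectors, the 5 with the smallest adjusted p per direction are named. The progenitor, endoderm, crest and mesenchyme marker lists had 10, 1, 5 and 1 lower and 0, 3, 3 and 2 higher genes of 12, 12, 10 and 10, and the dorsal forebrain list 3 and 1 of 10.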

Additional observations from a re-analysis of the deposited data

Results flagged for a closer look

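The 12 members with a genotype-by-allele difference were singled out because the test of the difference itself passed the threshold. The mean JF1 ratio of Zfp57-/- libraries minus that of wild-type libraries was -0.489 for Plxnb1, -0.423 for Sema3f, -0.39 for Sema5b, -0.373 for Ephb1, -0.291 for Sema4b, -0.226 for Ntn4 and -0.183 for Slit3. It was 0.156 for Epha4, 0.175 for Sema4c, 0.257 for Nrp2, 0.293 for Sema3e and 0.636 for Epha10. In 4 of them, Plxnb1, Sema3f, Epha4 and Nrp2, the median of the 15 nearest genes moved in the same direction by at least 0.1. Whether the genotype or a difference in the DNA of the lines goes with these ratios was not tested. No group holds the 4 samples that a test for single outlying libraries needs.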

How the results depend on the processing

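No member reversed its direction past the threshold under any alternative. When 1 library was left out, the number of calls moved for all genes as well. The counts below for such fits carry no share over all genes, so they do not set the members apart. The median log2 fold change in these fits lay between -1.27 and -0.9 for the members and between -0.024 and 0.02 for all genes. Counts of lower and higher members ranged from 27 to 47 and from 5 to 11 when 1 library was left out, and the lone library left in a genotype was then assumed to vary like the other group. For other surface genes the ranges were 22 to 29 lower and 0 to 2 higher, and for effectors 12 to 24 lower and 1 to 11 higher. Members biased in wild type ranged from 7 to 15, those biased in the mutant from 11 to 12 and those with a genotype-by-allele difference from 8 to 12. JF1 copies lower and higher ranged from 16 to 35 and 3 to 7, and B6 copies from 14 to 35 and 4 to 8. With DESeq2, 5 members were biased in wild type, 6 in the mutant and 7 differed by genotype, losing Epha10, Ephb1, Sema3e, Sema3f and Slit3. At an adjusted p of 0.01, 8 members were biased in wild type, 1 effector was higher and 0 other surface genes were. Higher effectors numbered 1 with a log2 fold change of at least 1 and 8 with the length offset. Scaling to total counts left 0 higher other surface genes, moved the median of all genes to -0.121 and the share of higher among called genes from 47.2% to 39.6%. Samples share only a replicate number, which no source names as a pairing: the correlation of deviations between libraries with equal numbers was 0.149 (10105 genes). The replicate block gave 9 higher members and 6984 called genes in place of 5522, and took the allelic call from Ephb1. The cause of these shifts was not tested. With 2 libraries a genotype, members with few counts, such as Epha8, Sema4f, Robo4 and Ntn5, could not be resolved.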

Other observations

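Wild-type replicate 1 exceeded replicate 2 in 48 of the members, among them all 7 Slit and Robo genes but 2 of the 8 ephrins. Between the wild-type replicates 20 members differed by more than 1.5-fold. The share over all genes was not counted for either number. Over all better counted genes the median log2 difference of replicate 1 over 2 went with exon length. It was -0.51 under 2 kb, -0.12 at 4 to 8 kb and 0.15 from 8 kb. The members tested had a median of 6.74 kb against 3.54 kb for all genes, and the part of length in this replicate difference was not tested. Summed over all members the level was 5981 and 4539 against 2917 and 3138 CPM in the wild-type against the mutant libraries. For the Slit and Robo genes it was 1179 and 723 against 312 and 352, and for the ephrins 361 and 421 against 166 and 203.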
